A study of Rattus norvegicus with 4 samples.

Results

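Genes that store, release and carry fatty acids in the liver were read from 4 microarrays, each of the liver of a male OLETF rat (Otsuka Long-Evans Tokushima Fatty), whose strain overeats and grows obese and then diabetic. The 2 thiamine rats had drunk water with 0.2% thiamine (vitamin B1; 2 g per L) for 51 weeks from the age of 4 weeks, and the 2 untreated rats had drunk water with none. All 4 were OLETF rats on standard chow, killed at the age of 55 weeks following a fast of 16 h, and no lean strain was measured. Each array held the RNA of 1 rat and none was pooled; the study kept 8 rats per group and 2 to a cage, and the labels do not say which of them were cage mates. The genes were chosen by name, as 10 genes of lipid droplets, lipolysis and fatty acid binding: Fabp1, Fabp2, Cd36, Plin2, Plin5, Hilpda, Cidec, Pnpla2, Pnpla3 and G0s2. They have 13 probes among the 33849 gene probes of the array, 2 each for Fabp2, Cd36 and Pnpla3 and 1 for each other gene. The comparison asks how these genes differ in the fasted liver of an obese rat after long thiamine intake.

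Liver cells keep surplus fatty acids as triglyceride in lipid droplets, whose surface is coated by perilipins and by proteins of the CIDE family that help droplets grow. On fasting, fatty acids from adipose tissue enter the hepatocyte, are bound by carrier proteins in the cytosol and are either stored in droplets or burned. The lipase Pnpla2 takes the first fatty acid off triglyceride, and the small proteins G0s2 and Hilpda hold this lipase back.

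A spot on these CodeLink arrays gives an intensity, and values below are log2 normalised intensities unless raw intensities, meaning spot signal less local background, are named. Raw intensities are not scaled between arrays. Their median over gene probes was 150.2 and 158.5 in thiamine rats 1 and 2, against 131.2 and 129.9 in untreated rats 1 and 2. Between 18176 and 20071 gene probes were above background per array, and 18664 probes were tested, those for which in 1 group or the other both spots exceeded background. The 2 arrays per group limit the precision. The hepatocyte markers Alb, Ttr, Tf, Serpina1 and Cyp2e1 were saturated on all 4 arrays, the tissue the labels give. Arrays cannot tell fewer cells of a type from less RNA per cell.

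Of the 13 probes, 11 were tested, covering 9 genes of the 8985 with a named tested probe. The probe of Plin5 and the second probe of Fabp2 were too close to background. Of the 11, 9 were above background on all 4 arrays. The difference of the thiamine from the untreated livers was positive for 5 of the 9 genes and negative for 4, with a median of 0.03, where 50.9% of all tested probes were positive and their median was 0.01. The median of the 9 genes lay between -0.01 and 0.35 when 1 rat was left out. In limma's moderated test with Benjamini-Hochberg adjustment, 0 of the 11 probes had an adjusted p under 0.05, as did 0% of all tested probes, and the adjusted p of the 11 ran from 0.457 to 0.989. At an unadjusted p under 0.05, 2 of the 11 were higher in the thiamine livers (3.81% of all tested probes) and 1 was lower (2.94%). The groups did not overlap, with the thiamine rats above, for 4 of the 11 probes (17.8% of all) and, with the thiamine rats below, for 2 (18.3%). Both probes of Pnpla3 are among these, in opposite directions. Each was tested only through the group where it was higher, a filter that favours such a gap. Untreated rat 1 had the lowest of the 4 values for 7 of the 11 probes, against 29.7% of all tested probes.

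**Figure D1:**
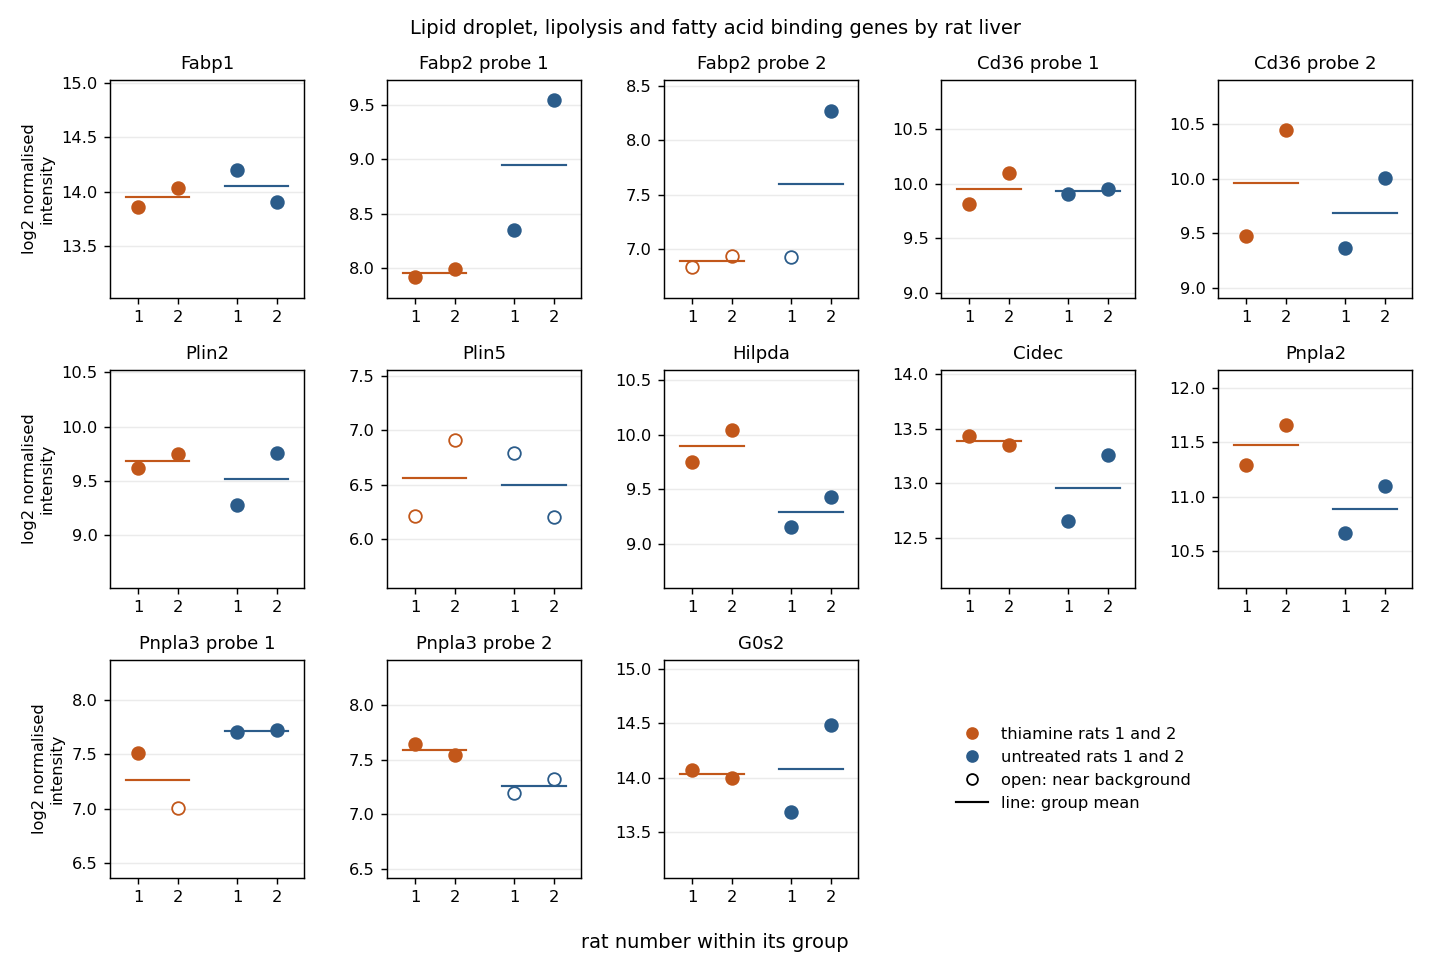
Log2 normalised intensity of each of the 13 probes in thiamine rats 1 and 2 (left of each panel) and untreated rats 1 and 2 (right); every panel spans the same range, the horizontal lines are group means, and open circles are spots near background. Hilpda, Cidec and Pnpla2 were higher in both thiamine rats than in both untreated rats, and the high value of Fabp2 in untreated rat 2 shows on both of its probes.

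A lipase and one of its inhibitors had the largest positive differences of the 11 probes, though neither passed the adjusted test. Pnpla2, the triglyceride lipase of lipid droplets, was at 11.29 and 11.66 in thiamine rats 1 and 2, against 10.67 and 11.10 in untreated rats 1 and 2. Both thiamine rats lay above both untreated rats. The raw intensities, 2653 and 3286 in the thiamine rats against 1436 and 2032 in the untreated rats, had the same order. They are not scaled for the brighter arrays of the thiamine rats. The difference was 0.59 ± 0.21 (log2, moderated SE, n = 2 per group), or 1.51-fold, with an adjusted p of 0.571 in limma. Leaving out untreated rat 1 gave 0.37, and leaving out untreated rat 2 gave 0.81. Hilpda, a small droplet protein induced by low oxygen and by fatty acids that inhibits Pnpla2, was at 9.75 and 10.04 in the thiamine rats, against 9.15 and 9.43 in the untreated rats. The rats thus stood in the same order for Hilpda as for Pnpla2, with thiamine rat 2 highest and untreated rat 1 lowest. The difference of Hilpda was 0.61 ± 0.20, or 1.52-fold (limma, adjusted p = 0.489), and it lay between 0.47 and 0.75 when 1 rat was left out. The 95% interval was 0.12 to 1.07 for Pnpla2 and 0.18 to 1.04 for Hilpda, before any correction for the number of probes.

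G0s2, the other inhibitor of Pnpla2 in the list, had a difference near 0. It was at 14.07 and 14.00 in the thiamine rats, against 13.68 and 14.48 in the untreated rats. The untreated rats enclosed the thiamine rats from both sides, 0.79 apart, while the thiamine rats were 0.08 apart. The difference of G0s2 was -0.04 ± 0.25 with a 95% interval from -0.59 to 0.50 (limma, adjusted p = 0.985). Leaving out untreated rat 1 gave -0.44, and leaving out untreated rat 2 gave 0.35, so its sign was set by which untreated rat was counted.

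Droplet coat and fusion proteins gave smaller differences. Cidec, the CIDE protein that moves lipid from small into large droplets, was at 13.43 and 13.35 in the thiamine rats, against 12.65 and 13.26 in the untreated rats. The groups did not overlap, but untreated rat 2 came close to the thiamine rats. The raw intensities, not scaled for the brighter thiamine arrays, were 11875 and 10674 in the thiamine rats, against 5920 and 9329 in the untreated rats. The difference of Cidec was 0.43 ± 0.22, or 1.35-fold (limma, adjusted p = 0.795). Leaving out untreated rat 1 gave 0.13, and leaving out untreated rat 2 gave 0.74. Plin2, the perilipin that coats most droplets of the hepatocyte, was at 9.62 and 9.75 in the thiamine rats, against 9.28 and 9.76 in the untreated rats. The groups overlapped, with untreated rat 1 alone lower than the rest. The spot of untreated rat 2 was flagged as contaminated. The difference of Plin2 was 0.17 ± 0.21 (95% interval -0.29 to 0.62, limma adjusted p = 0.930), -0.07 without untreated rat 1, and 0.41 with flagged spots set to missing, which drops untreated rat 2 for this gene.

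**Figure D2:**
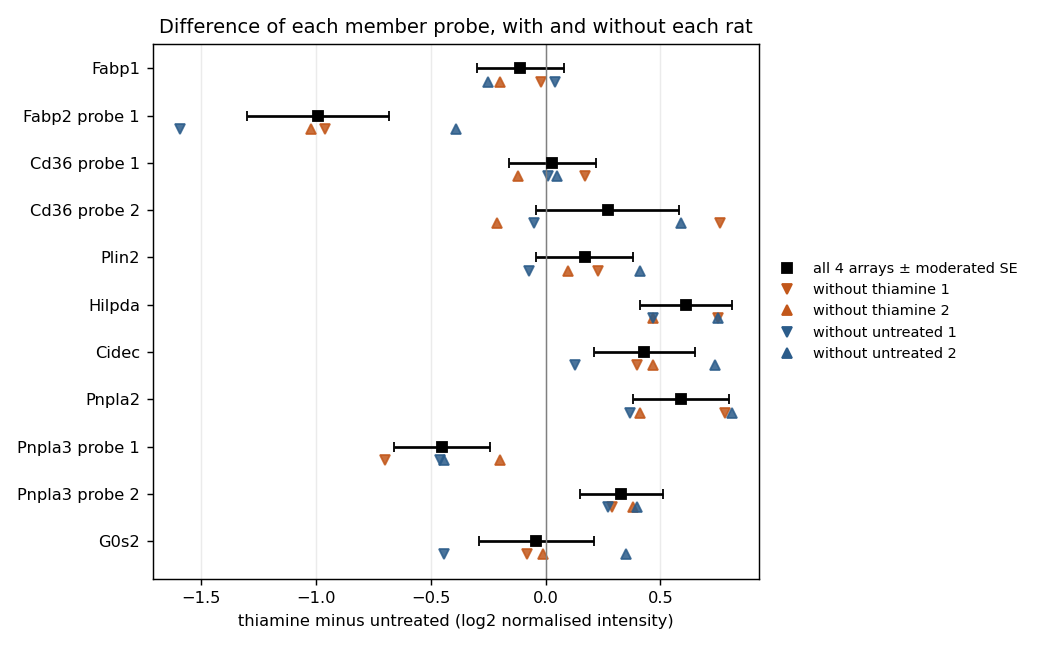
Difference of the thiamine from the untreated livers (log2) for the 11 tested probes; squares with bars are the estimate from 4 arrays ± the moderated SE, and triangles are the estimate without the rat named in the legend. For Fabp2, Cidec, G0s2 and the second probe of Cd36 the triangles without untreated rat 1 and without untreated rat 2 lie far apart, and for Hilpda the 4 triangles stay between 0.47 and 0.75.

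Pnpla2, Hilpda and Cidec had the largest positive differences among the 10 listed genes. Their start regions were set side by side, as sequence from RefSeq on the rat assembly GRCr8. All 10 genes had an entry. Each line below runs from 250 bases to 1 base before the gene's annotated start, in the direction of the gene, at chr1:205982029-205982278 (plus strand) for Pnpla2, chr4:58836213-58836462 (plus) for Hilpda and chr4:148137116-148137365 (minus) for Cidec. Capitals mark matches to the motifs searched on both strands.
Pnpla2: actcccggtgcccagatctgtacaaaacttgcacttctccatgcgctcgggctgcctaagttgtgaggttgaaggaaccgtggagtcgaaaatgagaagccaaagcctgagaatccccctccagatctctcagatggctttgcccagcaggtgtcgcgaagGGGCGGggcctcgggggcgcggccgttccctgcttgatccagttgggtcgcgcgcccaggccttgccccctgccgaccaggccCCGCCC
Hilpda: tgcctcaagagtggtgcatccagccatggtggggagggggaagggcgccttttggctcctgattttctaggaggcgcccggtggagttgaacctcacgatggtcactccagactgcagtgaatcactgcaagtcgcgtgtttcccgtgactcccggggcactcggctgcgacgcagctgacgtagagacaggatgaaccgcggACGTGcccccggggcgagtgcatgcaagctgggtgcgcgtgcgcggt
Cidec: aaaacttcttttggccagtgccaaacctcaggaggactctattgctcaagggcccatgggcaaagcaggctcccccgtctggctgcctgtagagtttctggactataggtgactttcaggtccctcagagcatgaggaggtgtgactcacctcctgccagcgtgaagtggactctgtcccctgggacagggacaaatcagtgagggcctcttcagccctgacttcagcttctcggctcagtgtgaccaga
The motifs were AGGTCA, the half-site bound by PPAR and related nuclear receptors, and its variant AGTTCA. The hypoxia response element was searched by its core ACGTG, and the E-box, which contains that core, by CACGTG. The TATA box was searched as TATAAA and the GC box as GGGCGG. Pnpla2 had 2 GC boxes, a motif that 30.5% of all 33469 windows of this length hold. Hilpda had 1 match to ACGTG, 47 to 43 bases before its start, and 16.6% of all windows hold one. The same core was in a window of Plin2, within an E-box, and in that of Cd36, neither of them printed. The differences of Plin2 and of the brighter Cd36 probe were 0.17 and 0.03. Cidec had no match to any of the 6 motifs, which says only that these letters are not in this window. No motif was shared by the 3 genes. The window of Pnpla3, not printed because its 2 probes disagree, held 2 GC boxes.

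Among the fatty acid carriers the intestinal form differed most. Fabp2, the fatty acid binding protein named for the intestine, was at 7.92 and 7.99 in the thiamine rats, against 8.35 and 9.54 in the untreated rats. Both thiamine rats were below both untreated rats, and untreated rat 2 stood well above the other 3: raw intensities were 191 and 213 in the thiamine rats, against 246 and 639 in the untreated rats. The difference of Fabp2 was -0.99 ± 0.31, or 0.50 times the untreated level (limma, adjusted p = 0.457). It was -0.39 without untreated rat 2. Without untreated rat 1 it was -1.59 and passed the test (limma, adjusted p = 0.0188), where untreated rat 2 alone stands for its group and is assumed to vary like the thiamine rats. The second probe of Fabp2 had raw intensities of 54.9 and 67.2 in the thiamine rats, against 56.8 and 227 in the untreated rats. It was near background in all but untreated rat 2, so it too singled out that rat, and untreated rat 1 was level with the thiamine rats on it. Of 8 enterocyte markers, 6 had a probe. The probes of Vil1, Alpi, Si and Lgals4 were near background, and those of Lct and Cdh17 were measured, at 9.24 and 9.28 (Lct) and 10.46 and 9.74 (Cdh17) in the thiamine rats, against 9.77 and 9.17 (Lct) and 10.18 and 9.41 (Cdh17) in the untreated rats. Untreated rat 2 was the lowest of the 4 for both genes. Their summed level was 2013 and 1478 in the thiamine rats and 2030 and 1256 in the untreated rats. The sum rests on these 2 genes, and whether either marks enterocytes in a liver sample was not tested. The part of intestinal tissue in the values of Fabp2 was not tested either.

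Fabp1, the liver form and one of the most plentiful proteins of the hepatocyte cytosol, was at 13.86 and 14.04 in the thiamine rats, against 14.20 and 13.91 in the untreated rats. The groups overlapped, and untreated rat 1 was highest. The difference of Fabp1 was -0.11 ± 0.19 with a 95% interval from -0.53 to 0.31 (limma, adjusted p = 0.954), and 0.04 without untreated rat 1. The 2 carriers can be compared at their start regions, chr4:104749090-104749339 (plus strand) for Fabp1 and chr2:213724379-213724628 (plus) for Fabp2, drawn as above.
Fabp1: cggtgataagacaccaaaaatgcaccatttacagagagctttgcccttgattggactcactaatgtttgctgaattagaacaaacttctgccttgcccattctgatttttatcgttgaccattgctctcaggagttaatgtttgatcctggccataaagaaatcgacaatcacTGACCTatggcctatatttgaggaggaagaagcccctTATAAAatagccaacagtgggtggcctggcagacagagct
Fabp2: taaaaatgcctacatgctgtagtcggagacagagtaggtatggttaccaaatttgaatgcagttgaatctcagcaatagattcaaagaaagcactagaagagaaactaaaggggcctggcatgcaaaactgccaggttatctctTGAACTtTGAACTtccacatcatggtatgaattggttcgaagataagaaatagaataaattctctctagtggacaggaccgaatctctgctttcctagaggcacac
In Fabp1 the first run of capitals is the half-site AGGTCA read on the other strand, 77 to 72 bases before the start, in the stretch known in the rat as the PPAR response element of this gene, and the second is a TATA box. In Fabp2 the capitals are AGTTCA on the other strand, matched at 106 to 101 and at 99 to 94 bases before the start and parted by 1 base, in the stretch known in the rat to bind HNF4. The half-site AGGTCA is held by 14.1% of all windows, AGTTCA by 12.2% and the TATA box by 12.9%. AGTTCA was added to the search because of its known place in Fabp2.

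Cd36, a membrane receptor that takes up fatty acids and oxidised lipoproteins and is also made by macrophages and endothelium, was measured by 2 probes. The brighter was at 9.81 and 10.10 in the thiamine rats, against 9.91 and 9.95 in the untreated rats, and the other at 9.48 and 10.45 in the thiamine rats, against 9.37 and 10.01 in the untreated rats. On both probes thiamine rat 2 was highest and the groups overlapped. The difference was 0.03 ± 0.19 (95% interval -0.39 to 0.44) on the brighter probe and 0.27 ± 0.31 (-0.40 to 0.95) on the other, with limma adjusted p of 0.989 and 0.918. The sign turned with the rats counted: without thiamine rat 2 the 2 probes gave -0.12 and -0.21, and without thiamine rat 1 they gave 0.17 and 0.76.

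Pnpla3 and Plin5 were too weak to place. Pnpla3, adiponutrin, a lipase-like droplet protein whose mRNA is known to be low in fasting and raised by feeding and insulin, gave opposite signs on its 2 probes. The probe that represents the gene was at 7.51 and 7.01 in the thiamine rats, against 7.70 and 7.72 in the untreated rats, a difference of -0.45 ± 0.21 (limma, adjusted p = 0.747). It was near background in thiamine rat 2 and tested only through the untreated rats, and the difference was -0.20 without that rat and -0.70 without thiamine rat 1. The other probe of Pnpla3 was at 7.64 and 7.54 in the thiamine rats, against 7.19 and 7.32 in the untreated rats, where it was not well above background. Its difference was 0.33 ± 0.18, with a 95% interval from -0.06 to 0.73 (limma, adjusted p = 0.808). The estimate of at least 1.23-fold higher in the thiamine livers allows for the dim spots only, not for the spread between rats. This probe was tested only through the thiamine rats. Raw intensities were 128 and 74.3 in the thiamine rats against 135 and 137 in the untreated rats on the first probe, and 145 and 141 against 79.1 and 89.2 on the other. For the first probe the scanner reports and the platform annotation name different sequence records, so its gene rests on the platform annotation alone. Plin5, the perilipin that ties droplets to mitochondria, was near background on all 4 arrays, with raw intensities of 12.6 and 63.6 in the thiamine rats, against 46.1 and 11.8 in the untreated rats. The 95th percentile of the 256 negative control spots was 96.1 and 59.5 on the arrays of the thiamine rats and 85.7 and 64.4 on those of the untreated rats. Plin5 exceeded it, narrowly, in thiamine rat 2 alone, so no level is given for this gene.

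**Figure D3:**
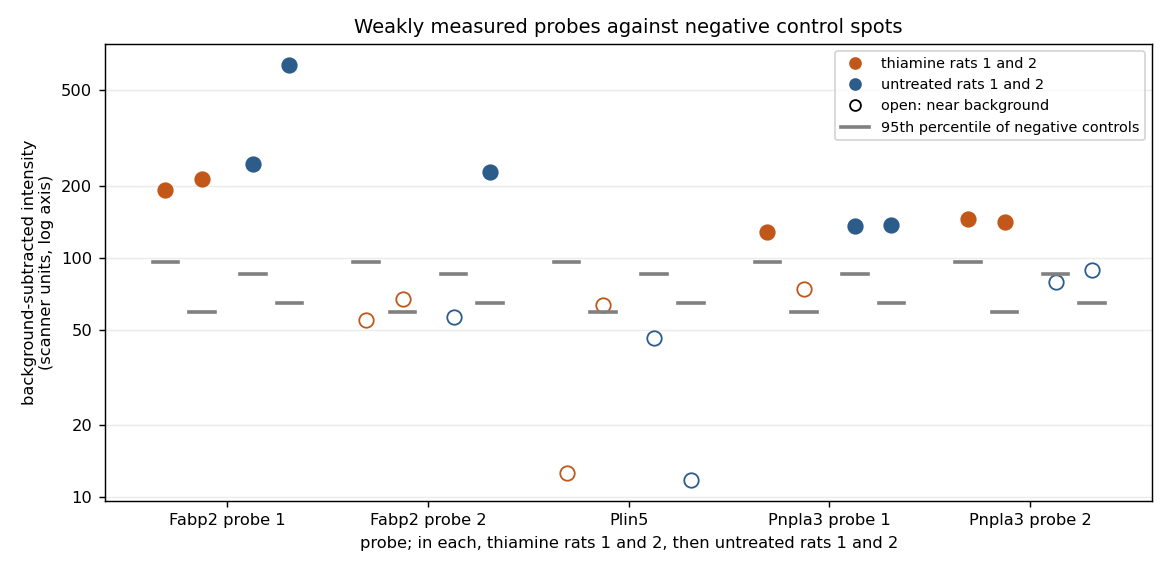
Background-subtracted raw intensity (log axis) of the probes of Fabp2, Plin5 and Pnpla3, with thiamine rats 1 and 2 left of untreated rats 1 and 2 for each probe; open circles are spots near background and grey bars are the 95th percentile of the negative control spots on the same array. Untreated rat 2 is far above the others on both probes of Fabp2, while the 2 probes of Pnpla3 run in opposite directions.

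The wider pathway gave no common direction either. Of 22 other genes of droplets and lipolysis, 16 were measured, 9 with a positive and 7 with a negative difference, a median of 0.05 and 0 past the test (limma, adjusted). At an unadjusted p under 0.05 there was 1 in each direction: Pnpla7, a lysophospholipase of the same patatin family as Pnpla2, at 0.75 ± 0.21 (0.50 without untreated rat 2), and Bscl2, the seipin that shapes new droplets at the endoplasmic reticulum, at -0.51 ± 0.20 (-0.29 without untreated rat 2). Pnpla7 was at 13.45 and 13.53 in the thiamine rats, against 12.99 and 12.48 in the untreated rats, and Bscl2 at 9.56 and 9.61 in the thiamine rats, against 9.87 and 10.31 in the untreated rats. The groups of both genes were apart, in opposite directions, which their choice by a small p favours. Of the 16 genes, 5 had groups apart with the thiamine rats above (17.8% of all tested probes) and 3 with them below (18.3%). An unadjusted p under 0.05 was reached by 3.81% of all tested probes with the thiamine livers higher and by 2.94% with them lower. The droplet dehydrogenase Hsd17b11 followed at 0.36 ± 0.20, or 0.17 without thiamine rat 2. Limma's adjusted p was 0.352 for Pnpla7, 0.632 for Bscl2 and 0.810 for Hsd17b11.

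Of 21 other genes of fatty acid uptake, binding and activation, 13 were measured, 8 with a positive and 5 with a negative difference, a median of 0.02 and 0 past the test. The positive differences numbered 4 without untreated rat 1 and 5 without thiamine rat 1, and the median lay between -0.06 and 0.10 when 1 rat was left out. Fabp7, the brain form of the binding protein, was at 10.54 and 10.37 in the thiamine rats, against 11.12 and 11.15 in the untreated rats. Its difference was -0.68 ± 0.18 (limma, adjusted p = 0.307), and the untreated rats were close to each other, unlike for Fabp2. Slc27a5, the bile acid and fatty acid CoA ligase of the liver, was at 15.08 and 14.98 in the thiamine rats, against 14.61 and 14.81 in the untreated rats. Its difference was 0.32 ± 0.18, or 1.24-fold (limma, adjusted p = 0.821). The spots of both thiamine rats were saturated, which may understate this estimate. Got2 was at -0.30 ± 0.18. Of 23 other PPARalpha target genes, 21 were measured, 11 with a positive and 10 with a negative difference and a median of 0.01. Leaving out 1 rat moved this median between -0.12 and 0.32. The 3 with the smallest unadjusted p were Pdk4 (0.82 ± 0.19), Cpt1a (0.54 ± 0.20, or 0.34 without untreated rat 1) and Ehhadh (0.52 ± 0.22, or 0.24 without thiamine rat 2 and 0.81 without thiamine rat 1), with limma adjusted p between 0.251 and 0.682. Cidec, G0s2, Hilpda, Plin2, Cd36 and Fabp1 are known PPARalpha targets themselves, and as given above they were on both sides of 0.

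Of 13 lipogenic genes, which like Pnpla3 are known to be low in fasting, 12 were measured, 3 with a positive and 9 with a negative difference and a median of -0.21. The median lay between -0.32 and -0.00 when 1 rat was left out, and was nearest to 0 when this was thiamine rat 2. The positive differences then numbered 6, and 5 without untreated rat 2. The elongase Elovl5 was at -0.57 ± 0.18 and the desaturase Fads2 at 0.66 ± 0.22 (0.37 without untreated rat 2), and 0 of the list passed (limma, adjusted p of at least 0.497). Of 13 regulators 9 were measured, 7 positive and 2 negative, with a median of 0.02. Without untreated rat 1 there were 4 positive and the median was -0.09. Those with the smallest unadjusted p were Pparg at 0.22 ± 0.20, Nr1h3 at 0.20 ± 0.20 and Insig1 at 0.13 ± 0.28, and their groups overlapped. When 1 rat was left out, Pparg lay between -0.00 and 0.44, Nr1h3 between 0.01 and 0.39 and Insig1 between -0.34 and 0.59.

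**Figure D4:**
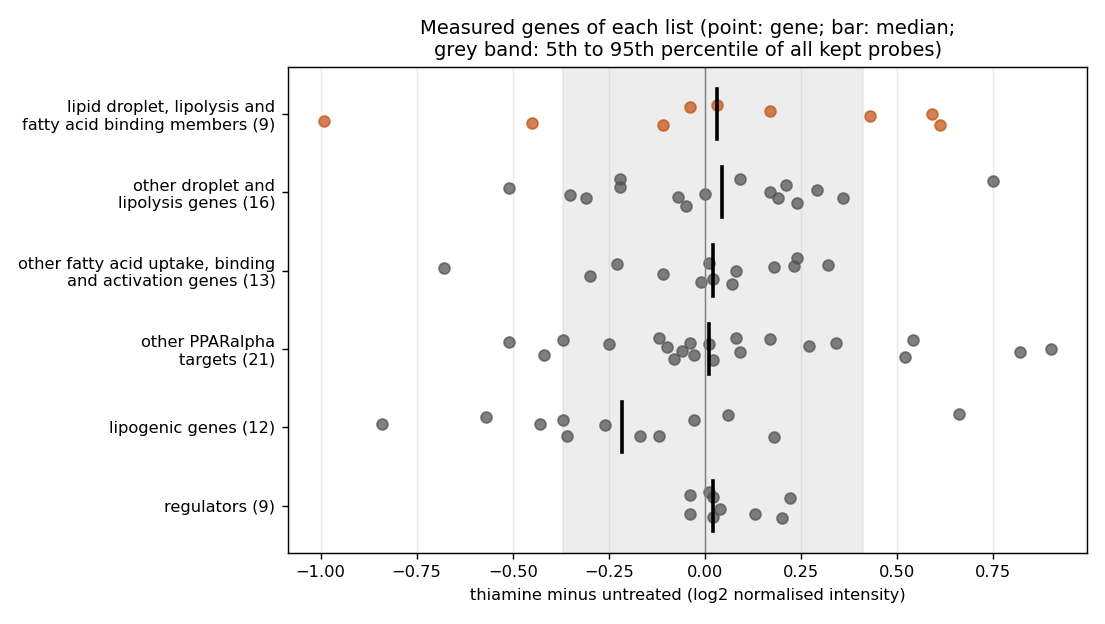
Difference of the thiamine from the untreated livers (log2) for the measured genes of the members and of 5 wider lists, with the number measured in brackets; black bars are medians and the grey band runs from -0.37 to 0.41, the 5th to 95th percentile of all tested probes. The medians lie at 0.05 or closer to 0 except that of the lipogenic genes, at -0.21. Of the 9 member genes 5 lie outside the band, on both sides, where by its making 5% of all tested probes lie beyond each end. Among the 5 is Pnpla3, by a weakly measured probe whose sign the other probe of the gene does not share.

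Markers of liver cell types were set beside these genes, and 0 of them passed the test (limma, adjusted). All 9 measured of 13 Kupffer cell and macrophage markers were higher in the thiamine livers, with a median difference of 0.62 (0.33 if thiamine rat 1 is left out), led by Ctss (0.92 ± 0.25, or 0.57 without thiamine rat 1), C1qa (0.81 ± 0.24, or 0.52 without it) and C1qb (0.67 ± 0.21, or 0.44 without untreated rat 2), with limma adjusted p of at least 0.334. Their summed level was 29062 and 20203 in the thiamine rats, against 19734 and 12800 in the untreated rats. Thiamine rat 1 was highest on this sum and untreated rat 2 lowest. Of 10 endothelial markers 7 were measured. In the thiamine livers 6 of these were higher and 1 was lower, the median was 0.28 (0.15 without thiamine rat 1) and the summed level was 6357 and 5689 in the thiamine rats, against 4621 and 4425 in the untreated rats. Lyve1 was at 0.77 ± 0.20, Pecam1 at 0.55 ± 0.18 and Kdr at 0.42 ± 0.20 (0.20 without untreated rat 2). Among 8 adipocyte markers, Adipoq, Lep, Fabp4 and Slc2a4 were near background, and 2 were measured, Cfd at 0.66 ± 0.22 (0.35 without thiamine rat 1) and Lipe at 0.29 ± 0.20 (0.09 without untreated rat 1), with a summed level of 2225 and 1794 in the thiamine rats, against 1373 and 1550 in the untreated rats. Stellate cell markers were measured for 5 of 10 genes, 2 higher and 3 lower, with Reln at 0.14 ± 0.25 and Col1a1 at -0.06 ± 0.19, a median of -0.03 and a summed level of 7705 and 6633 in the thiamine rats, against 8050 and 6876 in the untreated rats. Hepatocyte markers were measured for 9 of 10 genes, 3 higher and 6 lower, with a median of -0.04 and a summed level of 210732 and 225455 in the thiamine rats, against 216093 and 218016 in the untreated rats. Alb, Ttr, Tf, Serpina1 and Cyp2e1 were saturated on all arrays, which limits any difference that this sum and median can show. The part of macrophages, endothelium and adipose tissue in the differences of Hilpda, Pnpla2, Cidec and Cd36 was not tested.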

How the data were processed

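Per the file headers, the deposited scanner reports come from CodeLink Expression Analysis 5.0.0.31312 and give intensity on a linear scale: spot mean, local background and their difference. A deposited value table gives intensity too, ranked alike on each array, with medians between 147.483 and 147.506; no header or label says how the authors made it, and it served as an alternative.

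Background was corrected with normexp (offset 50), controls were left out, and the 33849 gene probes were quantile normalized on the log2 scale. Tested probes (18664) had in at least 1 group neither array's spot flagged near background or masked. The comparison used limma 3.58.1 under R 4.3.3, two-sided, with Benjamini-Hochberg adjustment over these probes and a threshold of 0.05. Residual degrees of freedom were 2, and 10.8 once moderated. Every SE is the moderated one, drawn towards the spread of all probes, and can understate that of genes whose rats differ widely. The fit was tested on simulated data.

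Genes were named from the platform annotation, updated to GRCr8 RefSeq symbols. Of the 13 member probes, 7 carry a RefSeq transcript of the gene in the scanner reports. A gene is its brightest kept probe. All members are named, and of each wider list up to 3 genes with the smallest unadjusted p; some of these are not reported here. Where 1 group was dim, the stated minimum fold sets the bright group against the lowest signal above background or the dim probe's own, whichever is higher. Leaving out a rat kept the normalization and the kept probes. Summed levels are sums of linear normalised intensity. Members and lists were chosen with earlier results of these data known, and no test was made over a list. P-values set a difference against the moderated spread, which joins that between 2 rats per group with that of all tested probes.

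Alternatives changed the background correction or its offset, the scaling, the handling of dim and flagged spots, the source of values, the block and the probe rule, or left out 1 rat.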

Additional observations from a re-analysis of the deposited data

How the results depend on the processing

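Leaving out 1 rat gave 36 differences of member genes, of which 4 changed sign. The 4 settings that recompute every value (background correction, offset, scaling and the deposited table) gave 36, of which 1 did. The filters on dim probes and the replicate block leave a difference as it is wherever the gene is measured, so they are not counted. Fabp2, Hilpda, Cidec and Pnpla2 kept their sign in both sets. Pnpla3 has probes of opposite sign and was not measured where signal on all 4 arrays was required. Fabp1 turned to 0.04 and Plin2 to -0.07 without untreated rat 1, Cd36 to -0.12 without thiamine rat 2, and G0s2 to 0.35 without untreated rat 2 and to 0.01 in the deposited value table. With all arrays, the largest shift of Pnpla3 was to -0.06, the mean of its 2 probes, and that of Plin2 to 0.41 with flagged spots missing. Probes called by limma over all tested numbered 1 to 65 and member probes 0 to 1 when 1 rat was left out, the 1 being Fabp2 without untreated rat 1; the member genes with a positive difference numbered 4 to 6. With the replicate number as a block, 126 probes passed, among them 1 member probe, of Fabp2 at -0.99 (limma, adjusted p = 0.0305). The labels do not say whether rats of the same number were paired. Their deviations from the group means correlated at -0.07. With 2 rats per group this correlation cannot decide whether they were paired. The other ends of the ranges when 1 rat was left out were -0.25 for Fabp1, 0.17 for Cd36, 0.41 for Plin2 and -0.44 for G0s2. The cause of these shifts was not tested. Some or all spots of Plin5, of both probes of Pnpla3 and of the second probe of Fabp2 were near background.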
